A study of Mus musculus with 12 samples.

Results

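The cytosolic ribosomal protein genes encode the protein parts of the ribosome that translates nuclear mRNAs. They were taken by symbol from gene-level tables of mouse embryonic stem (ES) cell RNA: the Rpl and Rps symbols with a number and at most 1 trailing a, x or l, the stalk genes Rplp0, Rplp1 and Rplp2, and Rpsa, Rpl36al, Rpl22l1 and Fau. The rule itself used no measured value, though it was set with earlier results of these data known. It gave 86 of 54446 genes, 53 of the large (60S) and 33 of the small (40S) subunit. Of these, 83 were annotated as protein-coding and 3 as pseudogenes (Rps4l, Rpl6l and Rpl32l). The symbols Rps3a1 and Rack1 are among those missed by the choice although their products are ribosomal, and they are given apart.

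The study put ES cells into a dormant, diapause-like state with the mTOR inhibitor Ink128 (mTORi) and asked how DNA methylation and demethylation shape it. A line labelled E14 KH, the wild-type line, and a line labelled E14 DNMT3ABKO, which lacks both enzymes of de novo DNA methylation, Dnmt3a and Dnmt3b, were each sampled untreated (0 h) and after 72 h and 144 h in mTORi, with 2 libraries in each of the 6 groups. The methods place wild-type KH2 and Dnmt3a/b knockout cells on feeder cells and E14-background cells without feeders. The labels here begin with E14, and these lines were taken as the ones on feeder cells. Cells were sorted before RNA extraction. Each genotype is represented by 1 line, and no culture was kept untreated for 72 or 144 h, so mTORi and time in culture cannot be told apart. Per the study's reporting statement, experiments were independent repeats and the time points of a repeat were handled side by side, so the replicate numbers were taken as a possible shared batch. With 2 libraries a group, p-values measure the spread between these repeats.

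Ribosomes are built from ribosomal RNA and about equal numbers of each protein, so their proteins are made in step and unused ones are degraded. Most ribosomal protein mRNAs begin with a pyrimidine-rich stretch called the terminal oligopyrimidine (TOP) motif, through which mTOR controls how strongly they are translated. That control acts mainly on translation, whereas the values here are mRNA abundances. Several ribosomal proteins have a second gene copy, a paralog, whose use differs between tissues.

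All levels are TPM values (transcripts per 1000000), which are scaled by transcript length and to the same sum in every library. They show shares of a library, not RNA per cell, and in bulk RNA fewer cells of a type and less RNA per cell cannot be told apart. The read depth behind a TPM is unknown. Between 15179 and 15814 genes reached 1 TPM in a library. Dnmt3a was at 54.7 to 144 TPM in the KH libraries and at 7.35 to 21.9 in the DNMT3ABKO libraries, and Dnmt3b at 142 to 258 and 12.7 to 27.5. The 12 ES cell markers were above 1 TPM in all 12 libraries. The 20 fibroblast markers summed to 1484 to 1765 TPM at 0 h, 325 to 424 at 72 h and 77.4 to 90.4 at 144 h, and 12 macrophage markers summed to 261 to 324, 128 to 197 and 21.5 to 39.5 TPM. At 144 h, 2 to 4 of the 20 and 6 to 10 of the 12 were under 1 TPM in a library, where the ES markers summed to 6930 to 7040 TPM against 4473 to 4783 at 0 h. These non-ES transcripts fell over the same steps as the changes described here, and their part in them was not tested. Single markers went against these sums. In DNMT3ABKO cells at 144 h, 1 of the 18 fibroblast markers averaging 1 TPM or more rose (log2 change 0.46). In the same comparison 2 of the 12 ES markers fell (the lowest by -0.30), and in KH cells at 144 h no fibroblast marker rose and no ES marker fell. The 2 DNMT3ABKO libraries at 0 h differed most from each other (r = 0.985 over the 15727 genes tested, against 0.993 to 0.996 in the other groups). The first of them held 0.747% mitochondrial TPM, against 1.77% to 2.86% in all others, and 60.5% protein-coding TPM, against 63.6% to 68.1%. Small noncoding RNA took 12.4% to 16.9% of TPM in the untreated and 12.8% to 14.8% in the treated libraries, so the rest of the sum varied at 0 h.

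The 86 genes together held 10.1% to 10.6% of all TPM at 0 h and a larger share after mTORi, 11.7% to 11.9% at 144 h. Their sum was 101284 and 104669 TPM in the KH libraries at 0 h, 112941 and 112017 after 72 h, and 118879 and 118549 after 144 h. The DNMT3ABKO libraries gave 101549 and 105872 TPM at 0 h, 113877 and 115197 after 72 h, and 117363 and 117662 after 144 h. On the TPM scale the groups did not overlap between times in either line, and the rise from 0 to 144 h was 15.3% in KH and 13.3% in DNMT3ABKO cells. All of these are shares of a library. Scaling to added spike-in RNA, the paper reported a global decrease of transcription under mTORi in wild-type and Dnmt3a/b knockout cells. Whether these mRNAs rose or fell per cell cannot be read from TPM. With 2 libraries a side an exact two-sided permutation test cannot go below p = 0.333, so no p is given for a sum. With each library rescaled by the median ratio over genes in place of the TPM sum, the KH means were 104277, 106301 and 116906, and the DNMT3ABKO means 109756, 111008 and 119971. On that scale most of the rise lay between 72 and 144 h, and the untreated DNMT3ABKO libraries (114248 and 105265) overlapped those at 72 h (109146 and 112870).

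The small subunit gained more than the large. From 0 to 144 h the small subunit sum rose by 21.1% in KH and 18.6% in DNMT3ABKO cells, and the large subunit sum by 10.9% and 9.30%. The ratio of large to small subunit TPM, which no rescaling of a library can alter, was 1.331 and 1.329 in the KH libraries at 0 h and 1.326 and 1.328 in the DNMT3ABKO libraries at 0 h. It was 1.232 and 1.223 in KH at 72 h, 1.220 and 1.217 at 144 h, 1.230 and 1.231 in DNMT3ABKO at 72 h, and 1.229 and 1.216 at 144 h. All 4 untreated libraries therefore lay above all 8 treated libraries, and the gap between them was wider than the spread within any group. Without the pseudogenes and the less expressed paralogs, 46 large and 31 small subunit genes remained, and their small subunit sum rose by 22.0% in KH and 19.5% in DNMT3ABKO cells while the large subunit sum rose by 11.4% and 9.53%.

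**Figure D1:**
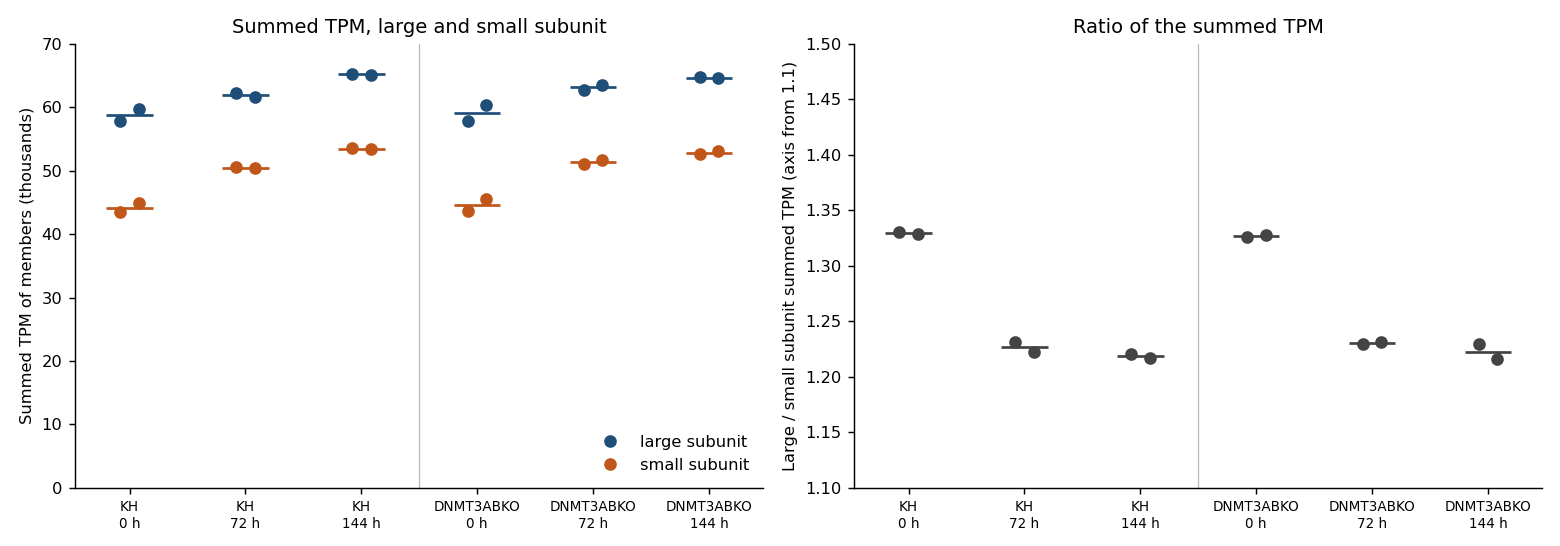
Left, summed TPM (axis in units of 1000) of the 53 large and 33 small subunit genes in each library, by line and hours in mTORi; right, the ratio of these sums, on an axis that does not start at 0. Points are libraries and bars the mean of 2; the ratio lies between 1.326 and 1.331 in the 4 untreated libraries and between 1.216 and 1.232 in the 8 treated ones.

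The gain was spread over many genes and was partly offset in the large subunit. In KH cells 30 of 33 small subunit genes had a higher mean TPM at 144 h than at 0 h, and together they added 9576 TPM against 270.0 TPM lost by the other 3. In the large subunit 41 of 53 genes added 7919 TPM and 12 lost 1487 TPM. DNMT3ABKO cells gave 8859 TPM gained and 554 TPM lost in the small subunit, and 6984 TPM gained and 1486 TPM lost in the large. Rps24 added more than any other small subunit gene, 852 TPM in KH and 1072 in DNMT3ABKO cells. Rpl41 fell by 485 TPM in KH cells and fell by 544 TPM in DNMT3ABKO cells, more than any other member.

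The levels themselves spanned a wide range although a ribosome holds nearly all of the proteins in equal number. TPM is per length, so genes can be set side by side, as far as reads were placed on the right gene and transcript. Rows of the members' -ps pseudogenes, not counted here, held 6907 TPM on average in KH cells at 0 h. Rps15a was at 310 and 450 TPM in the 2 KH libraries at 144 h. Over all 12 libraries 12 genes averaged above 2000 TPM, 44 between 1000 and 2000, and 16 between 500 and 1000. Another 9 lay between 100 and 500, 4 between 1 and 100, and 1, Rpl3l, below 1. Rpl13a was the highest large subunit gene in every group, at 2561 ± 55.3 TPM in KH cells at 0 h (mean ± SD, n = 2) and 3389 ± 37.7 TPM at 144 h. Rpl22, whose protein mice can live without, was the lowest of the 46 main large subunit genes in every group, at 382 ± 8.95 TPM at 0 h in KH cells. The coefficient of variation over the 46 genes was between 45.8% and 48.8% in the 6 groups, and over the 31 small subunit genes between 36.5% and 39.8%.

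Member by member, the fall of the ratio appeared as a larger shift of the small subunit genes. Changes are differences in mean log2(TPM + 1) from a limma fit over all 12 libraries and 15727 genes that averaged 1 TPM or more, and a gene was called when its Benjamini-Hochberg adjusted p over all these genes was under 0.05. Of the 86 genes, 85 passed the filter, and Rpl3l, whose product replaces Rpl3 in muscle ribosomes, did not. The median change of the 33 small subunit genes was 0.18 at 72 h and 0.29 at 144 h in KH cells, and 0.20 at both times in DNMT3ABKO cells. The 52 large subunit genes had medians of 0.06 and 0.14 in KH and 0.08 and 0.13 in DNMT3ABKO cells. The median of all genes tested was 0.08 at 72 h and 0.05 at 144 h in KH cells, with 0.12 and 0.05 for DNMT3ABKO cells, so at 72 h the large subunit genes stood no higher than the average gene in either line.

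In KH cells at 72 h, 22 of the 85 genes were called higher and 6 lower, against 28.3% and 19.5% of all genes tested. This is 25.9% and 7.06% of the members, so their share called higher was near the background and their share called lower was under it. In KH cells at 144 h, 37 were called higher and 4 lower (43.5% and 4.71% of members), against 27.4% and 23.9% of all genes. The small subunit gave 19 higher and 1 lower of 33, and the large subunit 18 higher and 3 lower of 52. Without the first KH library at 72 h the 72 h count of 28 calls was 18, and without either DNMT3ABKO library at 0 h it was 51. Without the first or the second KH library at 144 h the 144 h count of 41 was 24 or 25.

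In DNMT3ABKO cells 29 genes were called higher and 6 lower at 72 h (34.1% and 7.06% of members). Over all genes tested the shares were 34.3% and 21.6%, so the members' share called higher was near the background. Their share called lower was under it. At 144 h 35 members were called higher and 4 lower (41.2% and 4.71% of members), against 31.4% and 26.2% of all genes. At 144 h these were 21 higher and 2 lower of the 33 small subunit genes and 14 higher and 2 lower of the 52 large subunit genes. Leaving out the first or second library at 72 h gave 22 or 21 calls at 72 h, and leaving out either library at 144 h gave 22 calls at 144 h. Under median-ratio scaling, which lowers the all-gene median of this line at 72 h from 0.12 to 0.0064, the members' median at 72 h went from 0.12 to -0.0078 and their calls were 20 higher and 12 lower. In KH cells the same scaling took the median at 72 h from 0.13 to 0.031, with 14 called higher and 11 lower. At 144 h the medians under that scaling were 0.17 in KH and 0.11 in DNMT3ABKO cells, with 31 higher and 6 lower and 29 higher and 5 lower.

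**Figure D2:**
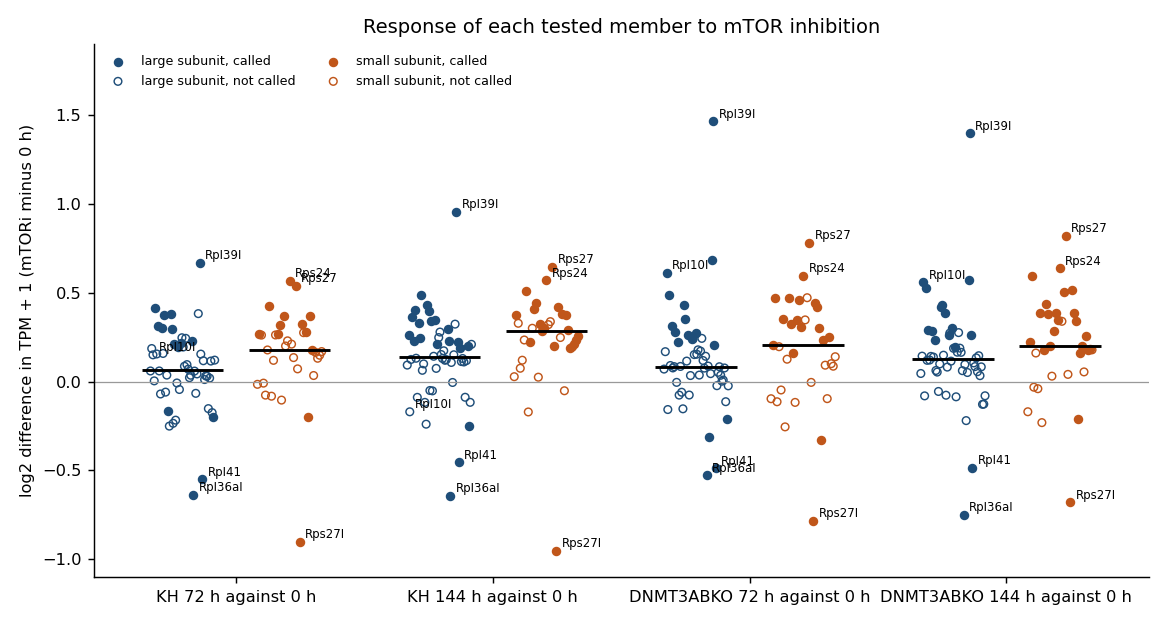
Difference in log2(TPM + 1) between mTORi and 0 h for the 85 tested genes (vertical axis), by line, time and subunit. Each point is a gene, filled where limma called it, and the black bar is the subunit's median, which for the small subunit is 0.18 to 0.29 and for the large 0.06 to 0.14; Rpl39l lies at the top of each response and Rps27l, Rpl36al and Rpl41 at the bottom.

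Between 72 and 144 h few genes were called. In KH cells 1 of 85 genes was called higher (Rpl36, a large subunit protein, by 0.26) and 1 lower (Rpl10l, by -0.32), against 7.24% and 15.6% of all genes. In DNMT3ABKO cells limma called none higher (4 at an unadjusted p under 0.05) and 1 lower (Rpl36al, by -0.22), and the background was 8.81% and 18.5%. The direction was nevertheless mostly upward, with 73 of 85 genes higher in KH cells (median 0.084, against -0.041 for all genes tested) and 61 in DNMT3ABKO cells (0.032, against -0.064). Under median-ratio scaling 10 genes were called higher and 1 lower in KH cells, and 5 higher and none lower in DNMT3ABKO cells, without Rpl36 and Rpl36al. Neither of these was called with the replicate number as a block. The fit of only the groups compared called 15 genes in KH and 8 in DNMT3ABKO cells at this step. No gene was called in KH cells without any 1 of their libraries at 72 or 144 h, nor in DNMT3ABKO cells without any 1 of theirs, and 8 and 7 genes were called without either untreated DNMT3ABKO library.

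Many genes were called in both lines. At 144 h 26 genes were called higher in both lines, which is 70.3% of the KH list and 74.3% of the DNMT3ABKO list. None of the members was called in opposite directions, against 102 of all 15727 genes tested. At 72 h 19 members were shared, 86.4% of the KH list and 65.5% of the DNMT3ABKO list. Over all genes tested the shares called higher in both were 76.9% and 67.1% at 144 h and 81.8% and 67.4% at 72 h, so the overlap of the members was near that of all genes. The same 19 genes were called higher in all 4 responses, of which the 72 h and 144 h responses of a line share its untreated libraries. They include Rpl12, Rpl13a, Rpl23 and Rpl39l of the large subunit, and Rps3, Rps15, Rps24, Rps27 and Rps28 of the small. With the replicate block 15 of the 19 were called higher in all 4, without Rpl26, Rpl28, Rps4x and Rps19. Rpl36al, Rpl41 and Rps27l were lower in all 4, and 31 genes were called in none. The same counts over all genes tested were not made, so these counts have no background beside them. The lines have no library in common, and Pearson's r between their changes over the 85 genes was 0.84 for 72 h and 0.82 for 144 h. This describes these genes, which are not independent replicates.

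**Figure D3:**
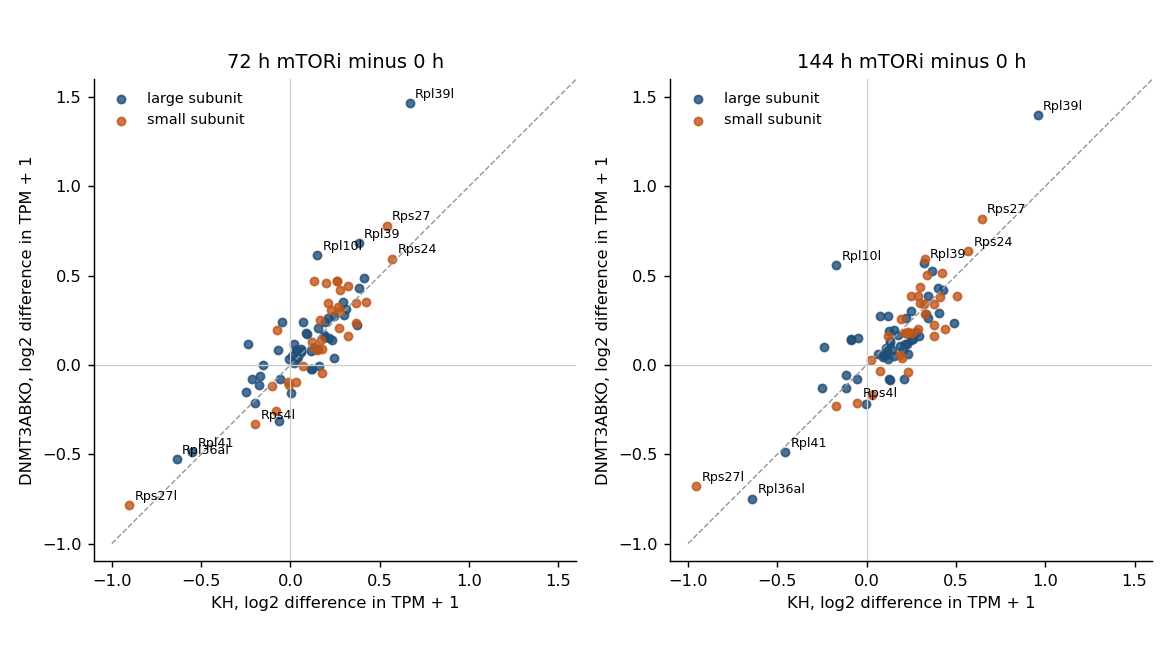
Difference in log2(TPM + 1) between mTORi and 0 h in KH (horizontal) and DNMT3ABKO cells (vertical) at 72 h (left) and 144 h (right), 85 genes by subunit; the dashed line marks equal change. Most genes follow the line (r = 0.84 and 0.82), and Rpl39l and Rpl10l lie above it at both times.

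The members were also counted by place in the ribosome. Of 14 proteins of the 40S head, which swivels as tRNAs and mRNA move through, 10 were called higher at 144 h in KH and 11 in DNMT3ABKO cells and none lower (none at an unadjusted limma p under 0.05 in any of these groups), with a median of 0.32 and 0.31. Over all genes tested 27.4% were called higher in KH and 31.4% in DNMT3ABKO cells, and the head gave 71.4% and 78.6%. Of 17 body and platform proteins, 9 and 10 were called higher (52.9% and 58.8%) and none lower, with medians of 0.23 and 0.18. Of 9 proteins along the nascent peptide tunnel or around its exit, 4 and 5 were called higher (44.4% and 55.6%) and none lower. Their median was 0.28 in each line.

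After Rps27, Rps24 and Rps15 had the largest rises of the small subunit genes in KH cells at 144 h. Rps15, a head protein near the decoding site, was at 1728 and 1738 TPM in KH cells at 0 h, 2385 and 2268 after 72 h, and 2404 and 2527 after 144 h. All treated KH libraries lay above both untreated ones, and the change at 144 h was 0.51 ± 0.06 (SE; limma adjusted p = 0.000109). In DNMT3ABKO cells it went from 1902 and 1804 TPM to 2465 and 2373 TPM at 144 h (0.38 ± 0.06, limma adjusted p = 0.000499). Rps24, whose loss-of-function mutations cause Diamond-Blackfan anaemia in people, went from 1877 and 1651 TPM in KH cells at 0 h to 2740 and 2492 at 144 h, and from 2097 and 1783 to 2826 and 3197 TPM in DNMT3ABKO cells. Its groups did not overlap in either line, with changes of 0.57 ± 0.11 and 0.64 ± 0.11 (limma adjusted p = 0.0014 and 0.000554).

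The stalk, the flexible arm of the 60S subunit that recruits elongation factors, did not move together. Rpl12, at its base, went from 1930 and 2113 TPM in KH cells at 0 h to 2617 and 2583 at 144 h, and from 1882 and 2121 to 2808 and 2942 TPM in DNMT3ABKO cells. These groups were apart, and Rpl12 was called in all 4 responses (0.36 and 0.52 at 144 h, limma adjusted p = 0.00287 and 0.000235). Rplp0, which anchors the stalk, went from 1891 and 2162 to 1688 and 1709 TPM in KH cells (-0.25 ± 0.08, limma adjusted p = 0.0252), and in DNMT3ABKO cells its change of -0.13 was not called (limma adjusted p = 0.2). The KH call was lost without the second KH library at 0 h or either at 144 h (-0.15 to -0.26), with no filter on low values and in the fit of only the groups compared. Rplp1 fell by 0.20 in KH and by 0.21 in DNMT3ABKO cells at 72 h (limma adjusted p = 0.0498 and 0.0327) and was not called at 144 h (-0.12 and -0.13). The KH call was lost without any 1 library other than the untreated DNMT3ABKO ones (-0.16 to -0.23), and with a pseudocount of 0.1, scaling to protein-coding genes or a sum without the members. The DNMT3ABKO call was lost without the first untreated library of that line, either of its 72 h libraries or either KH library at 144 h (-0.16 to -0.25), and neither call held under the replicate block, with no filter or in the fit of only the groups compared. Rplp2, its partner, was called in none of the 4 responses and stayed between 836 and 1097 TPM in all 12 libraries.

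The 5S particle proteins Rpl5 and Rpl11, which also bind the p53 regulator Mdm2 when ribosome assembly is disturbed, differed from 0 h by no more than 0.19 on the log2 scale in any response. Rpl5 was at 762 and 757 TPM in KH cells at 0 h and 867 and 863 at 144 h (0.19 ± 0.07, limma adjusted p = 0.0413), and it was not called in DNMT3ABKO cells (0.10). Rpl11 was called in no response and ranged from 890 to 1114 TPM. Rps27a and Fau are made as fusions with ubiquitin or a ubiquitin-like protein. Rps27a went from 1740 and 1730 TPM to 1988 and 1990 TPM in KH cells at 144 h (0.20, limma adjusted p = 0.0197) and was not called in DNMT3ABKO cells (0.04), and Fau was called in neither (0.03 and -0.17). Rps6, the small subunit protein phosphorylated downstream of mTOR, was at 1303 and 1298 TPM in KH cells at 0 h and 1469 and 1491 at 144 h (0.19 ± 0.07, limma adjusted p = 0.0405), and at 1531 and 1359 against 1463 and 1533 TPM in DNMT3ABKO cells, where the groups overlapped (0.05, not called). The KH calls of Rpl5, Rps6 and Rps27a were lost under the replicate block, with no filter and under median-ratio scaling (0.15, 0.15 and 0.16). Those of Rpl5 and Rps6 were also lost under scaling to protein-coding genes and without any 1 library other than the untreated DNMT3ABKO ones (0.18 to 0.19 and 0.18 to 0.20), and that of Rps27a without any 1 KH library at 0 or 144 h (0.19 to 0.20).

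Rpl41, which encodes the shortest ribosomal protein, fell in both lines. It was at 1883 and 1687 TPM in KH cells at 0 h, 1261 and 1175 after 72 h and 1298 and 1303 after 144 h. In DNMT3ABKO cells it was at 1967 and 1826, 1318 and 1383, and 1411 and 1294 TPM. The treated libraries lay below the untreated ones in both lines, and the changes at 144 h were -0.45 ± 0.08 and -0.49 ± 0.08 (limma adjusted p = 0.000906 and 0.000457).

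The largest changes were in paralogs. In each response from 0 h the highest member was Rpl39l, and the lowest was Rps27l or, in DNMT3ABKO cells at 144 h, Rpl36al. For 4 of the 7 pairs examined both copies encode proteins of the same length, and these can be set base against base. The Rps27 and Rpl39 pairs, in which the copies moved apart or changed most, are shown as coding sequences without the stop codon from GENCODE M21 transcripts (GRCm38), with the bases that differ from the other copy in capitals. Rps27 lies on the minus strand of chr3 (coding span chr3:90212728-90213615, 4 coding exons) and Rps27l on the plus strand of chr9 (chr9:66946175-66949354, 4 coding exons); both proteins hold 84 residues, and 60 of 252 bases differ.
Rps27: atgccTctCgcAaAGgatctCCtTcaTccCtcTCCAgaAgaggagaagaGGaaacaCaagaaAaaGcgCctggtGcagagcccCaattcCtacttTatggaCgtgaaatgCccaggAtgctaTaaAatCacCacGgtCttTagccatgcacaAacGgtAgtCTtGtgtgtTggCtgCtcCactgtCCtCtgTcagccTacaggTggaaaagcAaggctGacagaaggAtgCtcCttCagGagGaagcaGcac
Rps27l: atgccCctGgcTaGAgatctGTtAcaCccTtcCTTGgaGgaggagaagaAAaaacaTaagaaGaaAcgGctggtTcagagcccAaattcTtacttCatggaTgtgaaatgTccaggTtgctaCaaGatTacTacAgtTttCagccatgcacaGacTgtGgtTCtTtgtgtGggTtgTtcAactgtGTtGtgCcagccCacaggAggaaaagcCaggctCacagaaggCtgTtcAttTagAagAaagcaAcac
Rpl39 lies on the minus strand of the X chromosome (chrX:37082704-37085127, 3 coding exons) and Rpl39l on the plus strand of chr16 (chr16:10174310-10174462), with its coding sequence in 1 exon; both proteins hold 51 residues, and 23 of 153 bases differ.
Rpl39: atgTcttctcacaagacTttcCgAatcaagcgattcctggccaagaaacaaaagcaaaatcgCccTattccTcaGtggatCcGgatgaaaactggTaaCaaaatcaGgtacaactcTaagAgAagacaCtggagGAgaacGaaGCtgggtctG
Rpl39l: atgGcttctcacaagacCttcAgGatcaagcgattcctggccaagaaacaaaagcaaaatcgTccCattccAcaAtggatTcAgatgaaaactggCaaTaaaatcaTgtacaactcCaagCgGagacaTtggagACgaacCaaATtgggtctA
The longest run of bases shared by the copies was 11 in Rps27 and Rps27l, 38 in Rpl39 and Rpl39l, 23 in Rpl10 and Rpl10l, and 24 in Rpl36a and Rpl36al. Their identities were 76.2%, 85.0%, 84.7% and 87.7% of aligned bases. Rps4l, annotated as a processed pseudogene, matched 79.6% of the Rps4x coding sequence with a longest shared run of 35 bases. A read that lay within such a run could not be placed by sequence alone.

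Rps27 and Rps27l, alternative versions of a small subunit protein of which Rps27l is a known p53 target, moved in opposite directions. Rps27 was at 1158 and 1354 TPM in KH cells at 0 h, 1768 and 1871 after 72 h, and 1963 and 1954 after 144 h. Rps27l was at 404 and 463, 223 and 239, and 222 and 223 TPM in the same libraries. In KH cells the treated and untreated groups were apart for each copy, with changes at 144 h of 0.64 ± 0.14 for Rps27 and -0.95 ± 0.19 for Rps27l (limma adjusted p = 0.00279 and 0.00215). In DNMT3ABKO cells Rps27 went from 909 and 1282 to 1907 and 1903 TPM (0.82 ± 0.14) and Rps27l from 265 and 457 to 215 and 219 TPM (-0.68 ± 0.19; limma adjusted p = 0.000515 and 0.0117). The 2 untreated DNMT3ABKO libraries differed widely in both genes, with 22.6% and 26.3% of the pair being Rps27l. The share of Rps27l was 25.7% ± 0.27 in KH cells at 0 h, 11.3% ± 0.09 at 72 h and 10.2% ± 0.05 at 144 h (SD, n = 2), and 24.4% ± 2.63, 9.81% ± 0.23 and 10.2% ± 0.15 in DNMT3ABKO cells. The DNMT3ABKO call of Rps27l at 144 h was lost without the first library of that group (-0.66) and in the fit of only the groups compared.

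Rpl36al, a copy of the X-linked Rpl36a with its coding sequence in 1 exon, fell while Rpl36a rose in KH cells. Rpl36al was at 418 and 461 TPM in KH cells at 0 h, 286 and 278 after 72 h and 282 and 280 after 144 h, and at 454 and 455, 318 and 311, and 266 and 273 TPM in DNMT3ABKO cells. All treated libraries lay below all untreated ones, with changes at 144 h of -0.64 ± 0.06 and -0.75 ± 0.06 (limma adjusted p = 1.75e-05 and 3.61e-06). Rpl36a went from 558 and 523 to 643 and 624 TPM in KH cells (0.23, limma adjusted p = 0.0253) and was not called in DNMT3ABKO cells (0.06). The KH rise was not called with no filter, under median-ratio scaling (0.19) or scaling to protein-coding genes (0.21), without the second KH library at 0 h (0.18) or without either at 144 h (0.21 and 0.25). The share of Rpl36al in the pair went from 44.9% ± 2.86 to 30.7% ± 0.34 in KH and from 43.8% ± 2.67 to 30.7% ± 0.40 in DNMT3ABKO cells.

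Rps4l and Rps4x, the X-linked gene of a small subunit protein, gave the third pair in which the second copy lost share in both lines at both 72 h and 144 h. Rps4x went from 1694 and 1699 TPM to 2190 and 2216 TPM in KH cells at 144 h and from 1842 and 1681 to 1981 and 1955 TPM in DNMT3ABKO cells (0.38 and 0.16, limma adjusted p = 0.000706 and 0.0493). Rps4l was lower at 72 h in both lines (-0.20 and -0.33, limma adjusted p = 0.0401 and 0.00282). At 144 h it was called lower in DNMT3ABKO (-0.21, limma adjusted p = 0.0257) and not in KH cells (-0.05). The DNMT3ABKO rise of Rps4x at 144 h was lost under the replicate block, under median-ratio scaling (0.11), under most other settings, and without any 1 library except the first untreated DNMT3ABKO one (0.10 to 0.17). The Rps4l call in KH cells at 72 h was lost without the second untreated KH library or any 1 treated library of either line (-0.12 to -0.25), with no filter and with a sum without the members. That in DNMT3ABKO cells at 144 h was lost without the first untreated library or either 144 h library of the line (-0.16 to -0.21). Both were lost under the replicate block and in the fit of only the groups compared, and the DNMT3ABKO call at 72 h was kept in all of these.

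Rpl39l and Rpl10l, autosomal copies of the X-linked Rpl39 and Rpl10 with single-exon coding sequences and known for use in the male germ line, moved differently. Rpl39l was at 18.3 and 20.4 TPM in KH cells at 0 h, 30.7 and 31.8 after 72 h, and 37.0 and 39.9 after 144 h. In DNMT3ABKO cells it was at 37.0 and 57.0 TPM, then 127 and 131, then 117 and 128. It rose in each line without overlap, by 0.96 ± 0.16 in KH and 1.40 ± 0.16 in DNMT3ABKO cells at 144 h (limma adjusted p = 0.000626 and 3.78e-05). Its share of the pair went from 2.63% to 4.12% in KH and from 7.17% to 12.2% in DNMT3ABKO cells. Rpl39 itself was at 437 and 814 TPM in DNMT3ABKO cells at 0 h and 866 and 908 at 144 h (0.57 ± 0.22, limma adjusted p = 0.0462), and its change of 0.32 in KH cells was not called. The DNMT3ABKO rise of Rpl39 was 0.12 without the first untreated library. Its call was lost without any 1 library except the second untreated DNMT3ABKO one (0.12 to 0.60), with no filter and in the fit of only the groups compared.

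Rpl10l was at 27.9 and 26.2 TPM in KH cells at 0 h, 30.4 and 29.8 after 72 h, and 24.0 and 23.8 after 144 h. In DNMT3ABKO cells it was at 63.0 and 69.5 TPM at 0 h, 105 and 98.8 after 72 h, and 95.4 and 101 after 144 h. It rose with mTORi in DNMT3ABKO cells (0.61 and 0.56, limma adjusted p = 6.4e-05 and 9.21e-05) and was called in neither KH response (0.15 and -0.17, limma adjusted p = 0.11 and 0.0694). Rpl10, by contrast, stayed between 1691 and 1860 TPM in all 12 libraries.

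**Figure D4:**
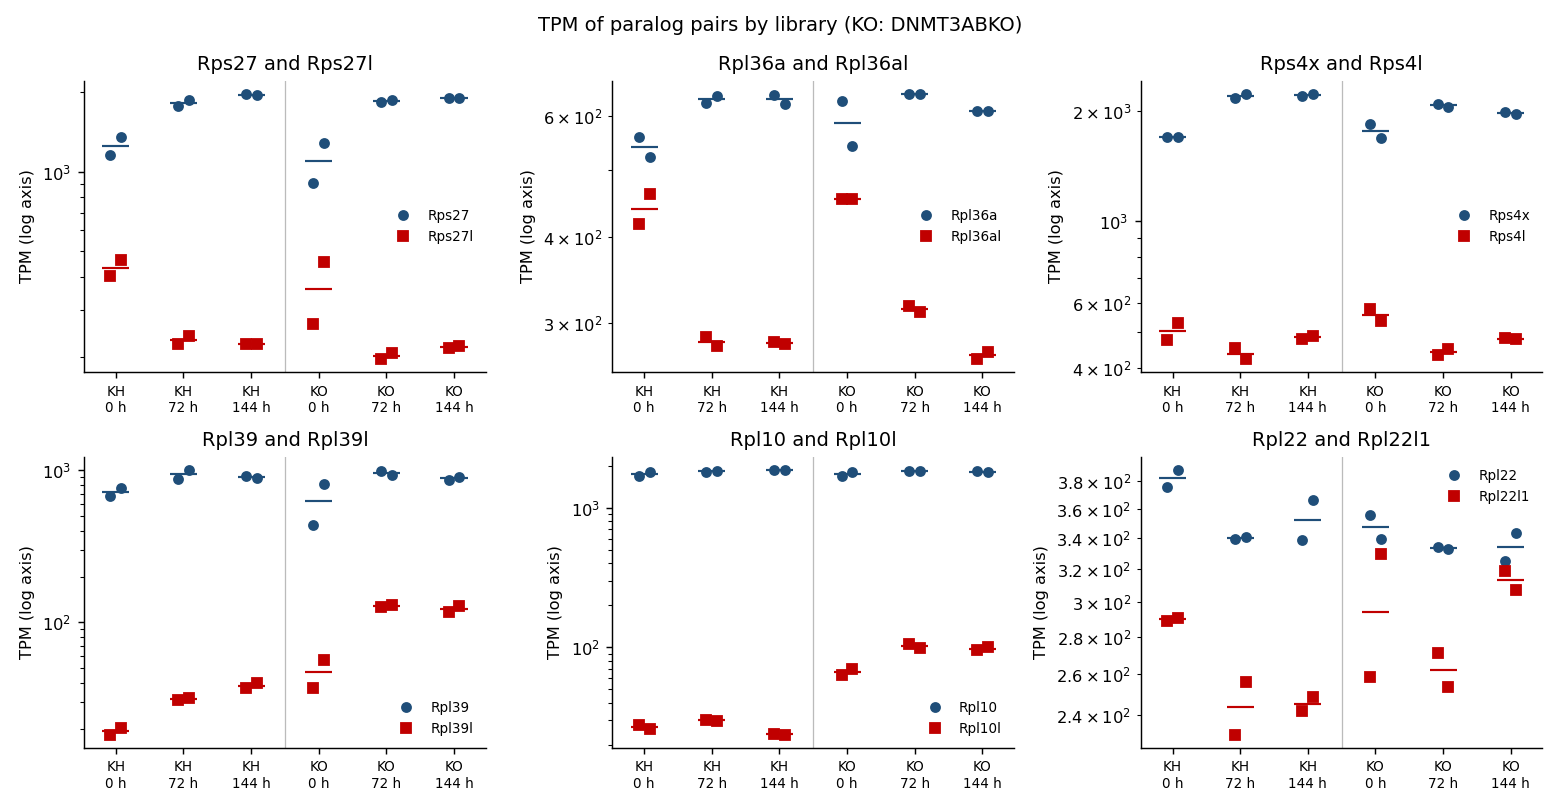
TPM (log axis, each panel with its own range) of 6 paralog pairs in each library, by line (KO, DNMT3ABKO) and hours in mTORi; points are libraries and bars the mean of 2. Rps27l and Rpl36al drop with mTORi while Rps27 rises; Rpl39l and Rpl10l are higher in every DNMT3ABKO group than in the KH group of the same time.

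Rpl10l and Rpl39l also set the lines apart, and few other members did. At 0 h 2 of 85 genes were called higher in DNMT3ABKO than in KH cells and none lower by limma (2 lower at an unadjusted p under 0.05), against 4.92% and 4.14% of all genes. At 72 h 2 were higher and 1 lower, against 9.26% and 10.0%, and at 144 h 3 were higher and 1 lower, against 11.0% and 15.5%. Rpl10l and Rpl39l were higher at all 3 times, Rpl10l by 1.26, 1.73 and 1.99 (SE 0.07; limma adjusted p = 3.72e-06, 1.4e-07 and 1.33e-08) and Rpl39l by 1.21, 2.01 and 1.65 (SE 0.16; limma adjusted p = 0.00107, 1.36e-05 and 3.92e-05). The third gene at 144 h was Rpl22l1, a paralog of Rpl22, at 242 and 249 TPM in KH and 319 and 307 in DNMT3ABKO cells (0.35 ± 0.10, limma adjusted p = 0.0307). At 0 h it did not differ beyond the spread, with 289 and 291 TPM in KH and 258 and 330 in DNMT3ABKO cells. The call at 144 h was lost under the replicate block, with no filter, and without any 1 library of these groups at 144 h (0.32 to 0.38).

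Rpl13, a 60S protein, was the gene called lower. It was at 1951 and 1847 TPM in KH and 1628 and 1666 in DNMT3ABKO cells at 72 h (-0.21 ± 0.06, limma adjusted p = 0.0435), and at 1999 and 1987 against 1741 and 1622 TPM at 144 h (-0.25 ± 0.06, limma adjusted p = 0.0152). At 0 h it was at 1690 and 1720 against 1547 and 1547 TPM, which was not called (-0.14). Rpl13 was called at neither time under the replicate block or under median-ratio scaling (-0.17 and -0.19), nor at 72 h without any 1 of the treated libraries (-0.17 to -0.24), nor at 144 h without either KH or the second DNMT3ABKO library of that time (-0.20 to -0.25). The median member differed between the lines by 0.00, 0.02 and -0.02 at 0, 72 and 144 h, where the median gene differed by -0.05, -0.04 and -0.04, and under median-ratio scaling the members' medians were 0.067, 0.054 and 0.027. The count at 0 h rests on the spread of the untreated DNMT3ABKO libraries: without the second of them, 29 members were called, 11 higher and 18 lower. Without either of those libraries the count at 72 h was 6 and at 144 h 14, and without either KH or the second DNMT3ABKO library at 144 h it was 2.

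Whether the response differed between the lines was tested as an interaction. Of 85 genes, 1 was called at 72 h and 1 at 144 h, Rpl10l in each case, with the larger rise in DNMT3ABKO cells (0.46 ± 0.10 and 0.73 ± 0.10, limma adjusted p = 0.0272 and 0.00144), against 5.23% and 8.59% of all genes called in either direction. The response of Rpl39l was larger in DNMT3ABKO cells by 0.80 at 72 h and 0.44 at 144 h, which was not called (limma adjusted p = 0.0734 and 0.271). No small subunit gene was called by limma at either time (1 at 72 h and 2 at 144 h at an unadjusted p under 0.05), with differences between -0.23 and 0.34 for 72 h and between -0.27 and 0.27 for 144 h. The Rpl10l call at 72 h was lost in the fit of only the groups compared and under the replicate block (0.46 in both) and without any 1 library other than the second untreated KH and both untreated DNMT3ABKO ones (0.42 to 0.51). Without the second untreated DNMT3ABKO library 21 members were called at 72 h and 26 at 144 h.

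The annotated starts of the genes were read for the TOP motif. RefSeq promoters (GRCm38.p6; 300 bases, of which 250 lie before the annotated start) were held for 64 of the 86 genes. A C at the start followed by at least 4 more C or T was found at an annotated start of 15 of the 64 (23.4%), and of 307 of the 10120 tested genes with a promoter (3.03%). It was found in 8 of 40 large and 7 of 24 small subunit genes, and in 0 of 69 mitochondrial ribosomal protein genes. The 8 large subunit genes include Rpl32l, annotated as a processed pseudogene and averaging 5.42 TPM over the 12 libraries. An annotated start need not be the start used in these cells, so a gene without the run here may still carry the motif. Starts of 3 paralog pairs are shown, and those of Rps6 and Rps18 as examples of a long run. Each window holds 10 bases before and 20 from the annotated start, with the unbroken C and T run from the start in capitals.
Rps27 (chr3:90213629-90213658, minus strand): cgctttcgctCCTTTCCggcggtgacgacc
Rps27l (chr9:66946076-66946105, plus strand): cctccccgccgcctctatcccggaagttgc
Rpl36a (chrX:134585644-134585673, plus strand): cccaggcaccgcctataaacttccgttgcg
Rpl36al (chr12:69184048-69184077, minus strand): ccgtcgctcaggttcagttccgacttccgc
Rpl39 (chrX:37085203-37085232, minus strand): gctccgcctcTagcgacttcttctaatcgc
Rpl39l (chr16:10170218-10170247, plus strand): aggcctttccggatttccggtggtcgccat
Rps6 (chr4:86857348-86857377, minus strand): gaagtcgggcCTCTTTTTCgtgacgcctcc
Rps18 (chr17:33955646-33955675, minus strand): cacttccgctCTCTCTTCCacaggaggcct
Rps27 carries the run and Rps27l does not, and none of the 4 genes of the other pairs shown carries it. Among small subunit genes the median change at 144 h in KH cells was 0.29 for the 7 with the run and 0.30 for the 17 without, and 0.22 and 0.20 in DNMT3ABKO cells. Among large subunit genes it was 0.13 for the 8 with it and 0.14 for the 31 without in KH cells, against 0.13 and 0.10 in DNMT3ABKO cells. The letters CCGGAAG, a core of sites bound by ETS factors, occurred on either strand in 25 of the 64 promoters (39.1%), 20.5% of those of all genes tested and 37.7% of those of mitochondrial ribosomal protein genes, and GGGCGG, a core of Sp1 sites, in 60.9% and 69.4%. TATAAA occurred in 12.5% and 8.82%, and CACGTG in 9.38% and 11.9%. These are matches of letters in the window only.

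Related genes were counted by list for comparison. Of the ribosomal genes that the symbol rule misses, limma called Rack1, a scaffold on the 40S head, higher at 144 h in both lines, by 0.39 in KH and 0.25 in DNMT3ABKO cells, and Rps3a1 by 0.27 and 0.21. The 78 mitochondrial ribosomal protein genes, which serve the separate ribosome of the mitochondrion, went down: limma called 49 lower and none higher at 144 h in KH cells (none at an unadjusted p under 0.05 either), and 45 lower and 5 higher in DNMT3ABKO cells. These are 62.8% and 57.7% called lower, against 23.9% and 26.2% of all genes tested. Their summed TPM fell by 23.6% and 21.6%. Of 20 ribosome assembly factors, limma called 8 lower and none higher at 144 h in KH cells (2 at an unadjusted p under 0.05), with Pno1, a 40S maturation factor, lowest (-0.52), and 5 were lower and 2 higher in DNMT3ABKO cells. The share called lower, 40.0% in KH cells, was 25% in DNMT3ABKO cells, near the background of 26.2%.

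Of 16 translation factors and other genes known for TOP mRNAs, 3 were called higher and 4 lower at 144 h in each line. The 18.8% called higher were under the background of 27.4% and 31.4%, and the 25% called lower were near that of 23.9% and 26.2%. Eef1a1, the elongation factor that delivers tRNAs, rose by 0.58 in KH and 0.65 in DNMT3ABKO cells, and Eef2, which moves the ribosome along, by 0.48 and 0.50. Eef1d, a subunit of the exchange factor of Eef1a1, fell by 0.71 and 0.87. Of 7 proteins that bind TOP or related mRNAs, 1 was called higher and 2 lower in KH cells, and limma called none higher (none at an unadjusted p under 0.05 either) and 1 lower in DNMT3ABKO cells. Larp1, which holds TOP mRNAs back when mTOR is inhibited, was called lower in both lines (-0.21 and -0.28, limma adjusted p = 0.0377 and 0.00878).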

How the data were processed

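RNA of 12 libraries, 2 in each of 6 groups set by the labels, was analysed from 12 deposited tables of TPM values per gene. Per the methods, wild-type KH2 and Dnmt3a/b knockout cells grew on mitomycin-treated feeders and E14-background cells grew without feeders. The labels begin with E14, and the lines were taken as the ones on feeders. Cells were sorted by flow cytometry before RNA extraction, an ERCC spike-in was added, and ribosomal RNA was depleted from total RNA. The authors trimmed reads with cutadapt 2.4, aligned them to mm10 with STAR 2.7.3a (the submitters' processing notes) and computed TPM with StringTie 2.0. The tables hold 0 ERCC entries, and TPM keeps no read depth.

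Genes that averaged 1 TPM or more (15727 of 54446) were fitted as log2(TPM + 1) with limma 3.58.1 in R 4.3.3, with 1 mean per group, all 12 libraries sharing 1 spread per gene moderated with limma's intensity trend, and p-values were adjusted by Benjamini-Hochberg over all genes tested at a threshold of 0.05. A count test could not be used since TPM are not counts. On simulated data made from these values for KH cells at 72 h against 0 h, 172 of 200 genes changed by 1 on the log2 scale among 15727 were recovered (86%) and 6.01% of calls were false. Each simulated gene had the same spread in all groups. In the data limma called 4447 genes higher and 3073 lower in this comparison, far more than the 200 changed. Most changes of the members were smaller than 1, and how well such changes are recovered was not tested. The members and lists were chosen with earlier results of these data known. Values were given for the paralog pairs, for at most the 4 highest and 4 lowest called members of each comparison whose groups did not overlap, and for the stalk, 5S, ubiquitin fusion genes and Rps6. Values of some genes are not reported here. Rpl13a and the printed start of Rps18 were chosen after their values were seen. Tables and sequences were handled in Python 3.11.15 with pandas 2.3.3 and NumPy 2.4.6, and plots drawn with matplotlib 3.10.9. Promoter starts came from RefSeq (GRCm38.p6) and coding sequences from GENCODE M21 (GRCm38), whose IDs matched 54409 of the 54446 genes. Since the study handled the time points of a repeat side by side, the replicate number was also fitted as a block within each line. Same-numbered libraries did not deviate together (r from -0.10 to 0.10 over 15727 genes). Alternatives were the pseudocount, the filter, the scaling, the samples in the fit, a replicate block, a minimum change, and each library left out.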

Additional observations from a re-analysis of the deposited data

Results flagged for a closer look

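The response of Rpl10l to mTORi differed between the lines by a test of the difference itself, at 72 h (0.46, limma adjusted p = 0.0272) and at 144 h (0.73, limma adjusted p = 0.00144), both as log2 change in DNMT3ABKO minus log2 change in KH cells. The 144 h difference was called under every alternative run except the minimum change of 1, while the 72 h difference lost its call in the fit of only the groups compared, under the replicate block and without any 1 of 9 of the 12 libraries. The 2 tests share the untreated libraries.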

How the results depend on the processing

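Among 72 called changes of named genes, 1211 of the alternative values kept direction and call, 229 kept direction and lost the call, and none reversed. Rescaling by the sum of protein-coding genes and the use of the main members only were chosen after seeing the data. Below, "step" means 144 h against 72 h, "lines" DNMT3ABKO against KH and "difference" the line difference in response. The cause of the changes was not tested, except where fewer samples or a stricter threshold make them by construction.

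Under median-ratio scaling the members' median was 0.031 in KH cells at 72 h, 0.14 at the KH step, -0.0078 at 72 h and 0.11 at 144 h in DNMT3ABKO cells, 0.11 at the DNMT3ABKO step, and 0.067 and 0.027 between lines at 0 and 144 h. The counts of members called were then 11 and 5 at the KH and DNMT3ABKO steps, 7 between lines at 72 h and 2 for the 72 h difference. The share of called genes that were higher moved over all genes from 59.1% to 47.6% in KH and from 61.3% to 49.9% in DNMT3ABKO cells at 72 h. Summed TPM was then 106301 and 116906 in KH cells at 72 and 144 h, and for DNMT3ABKO cells 109756, 111008 and 119971 at 0, 72 and 144 h. With -ps pseudogenes added the sums were 109883, 119847 and 126299 in KH and 110731, 122051 and 125037 in DNMT3ABKO cells. Scaled to protein-coding genes, the median was 0.11 in DNMT3ABKO cells at 144 h and 0.053 between lines at 0 h, with 3 calls at the DNMT3ABKO step, 4, 8 and 7 between lines at 0, 72 and 144 h, and 2 and 2 for the differences. With no filter the KH step gave 1 call.

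With only the groups compared, calls were 15 and 8 at the KH and DNMT3ABKO steps, 15 and 16 in DNMT3ABKO cells at 72 and 144 h, 12 and 16 between lines at 72 and 144 h, and 0 for the 72 h difference. With the replicate block, calls were 1 and 0 at the steps, 2 between lines at 144 h and 0 for the 72 h difference, and no other count moved by over 1.5 times. The calls of named genes that the block ended stand beside those genes, and it changed no other call of a member whose p is given. With a minimum change of 1, calls were 0 and 0 at 72 and 144 h in KH cells, 1 and 1 in DNMT3ABKO cells, 0 and 0 at the steps, 2 between lines at 144 h, and 0 and 0 for the differences.

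Leaving out 1 library gave 18 to 51 and 24 to 59 calls in KH cells at 72 and 144 h, 21 to 52 and 22 to 51 in DNMT3ABKO cells, 0 to 8 and 0 to 7 at the steps, 2 to 29, 2 to 6 and 2 to 14 between lines at 0, 72 and 144 h, and 0 to 21 and 1 to 26 for the differences. The median of the 72 h difference was then -0.027 to 0.069. The small minus large subunit median stayed above 0 in the responses from 0 h, at 0.088 to 0.16 and 0.078 to 0.15 in KH and 0.088 to 0.13 and 0.072 to 0.099 in DNMT3ABKO cells, and was 0.11, 0.15, 0.12 and 0.072 under median-ratio scaling.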
